A study of Mus musculus with 14 samples.

Results

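The 9 genes described here encode cadherins that hold keratinocytes to their neighbours: the desmogleins Dsg1a, Dsg2, Dsg3 and Dsg4, the desmocollins Dsc1, Dsc2 and Dsc3, and the classical cadherins Cdh1 (E-cadherin) and Cdh3 (P-cadherin). They were chosen by name, as 9 of the 34049 genes with any count, and all 9 passed the expression filter that left 24592 genes for testing. Their RNA was measured by bulk sequencing in 14 libraries of mouse hair follicle stem cells, which were sorted from trypsin-digested back skin as CD34-positive, Ly-6A/E-negative cells carrying a further marker written in the labels as CD45f. At postnatal day 20 (P20) there were 4 libraries labelled Irx5KO, a label for knockout of the transcription factor Irx5, and 4 labelled WT (wild type). At postnatal day 18 (P18) there were 3 labelled Irx5KO and 3 labelled WT. The sources used here give neither the allele, strain or sex nor the number of mice behind a library, so p-values measure the spread between libraries, which may be technical.

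Desmosomal cadherins bind desmogleins and desmocollins on the next cell and, inside the cell, are tied through plakoglobin, plakophilins and desmoplakin to keratin filaments. Classical cadherins are tied through catenins to actin in adherens junctions. In skin, desmoglein 3 and desmocollin 3 are best known from the basal layer, desmoglein 1 and desmocollin 1 from the upper layers, desmoglein 4 from the hair shaft, and desmoglein 2 and desmocollin 2 from simple epithelia and the less differentiated cells of skin. E-cadherin is found throughout the epidermis, while P-cadherin is found in basal cells, hair germ and hair matrix. The bulge stem cells that were sorted are largely quiescent and become active at the onset of hair growth.

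The 7 desmosomal members lie in a single cluster on mouse chromosome 18 (mm10, GENCODE vM21 annotation), which spans 643592 bases from position 19960930 to 20604521 and also holds Dsg1b and Dsg1c. The desmocollins are on its minus strand and the desmogleins on its plus strand. Cdh3 and Cdh1 lie next to each other on the plus strand of chromosome 8, at 106510891 to 106557297 and 106603351 to 106670246, with 46053 bases between them. Dsg1a, Dsg1b and Dsg1c are near-identical copies, so that the split of reads among them is uncertain. Dsg1a held between 59.4% and 84.8% of their summed counts.

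Some facts about the libraries bear on every result below. Total estimated counts ranged from 13618367 to 70083873 per library. The tables of each age carry 2 different numeric codes, read here as dates of unstated meaning, with both genotypes on each date. P18 Irx5KO 1 and P18 WT 1 and 2 carry the earlier code of that age, and P18 Irx5KO 2 and 3 and P18 WT 3 the later. At P20, libraries 3 and 4 of each genotype carry the earlier code and libraries 1 and 2 the later. Irx5 itself had 186 and 175 CPM (estimated counts scaled to library size) in the libraries labelled P20 Irx5KO 3 and 4, against 34.1 and 38.5 CPM in P20 WT 3 and 4, so on the earlier date the targeted gene went against the labels. On the later date it had 30.8 and 18.6 CPM in P20 Irx5KO 1 and 2, against 111 and 96.1 CPM in P20 WT 1 and 2. At P18 it had between 49.3 and 75.4 CPM in Irx5KO and between 96.4 and 136 CPM in WT. The two-sided exact permutation p was 0.629 at P20 and 0.1 at P18, the smallest value that 3 against 3 libraries allow. The group names below are therefore those of the labels. Whether the genotype labels of the earlier P20 date were exchanged was not tested. Exchanging them would turn the sign of every earlier-date value. The pooled P20 values, the difference between the P20 dates and the difference between ages all rest on them. So do the comparisons of P20 with P18 within each genotype. The table of P18 WT 3 also carries the word het. Markers that bear on the sort were measured in all 14 libraries: Cd34 had 248 to 944 CPM, Krt15, a keratin of bulge cells, had 4963 to 17693 CPM, and Ly6a had at most 2.79 CPM. Olfactory and vomeronasal receptor genes, which skin is not known for, held 5.30% of counts in P18 WT 2, 2.35% in P20 WT 2 and 1.76% in P18 WT 1, against 0.101% to 0.599% in the other 11 libraries.

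Per unit of length, the most abundant member was Dsc3, with a median over the 14 libraries of 1118.5 TPM (kallisto's level per transcript length; range 635 to 1809.7). Between 58.0% and 78.1% of that level came from a transcript of only 674 bases (Dsc3-202), and without it the median was 326 TPM. Counted that way, Dsc3 still exceeded Dsg3 (median 242 TPM) in 13 of 14 libraries. Dsg3 exceeded Cdh1 (median 190.2 TPM) in 9 of 14, so the order of these neighbours was not separated from their spread. Cdh1 exceeded Cdh3 (median 55.8 TPM) in 14 of 14 libraries, and Cdh3 exceeded Dsg1a (median 33.4 TPM) in 13 of 14. Dsg1a and Dsg2 (median 33.2 TPM) could not be ordered with all transcripts counted, with Dsg1a above Dsg2 in 7 of 14 libraries. Between 20.7% and 71.7% of the Dsg2 level came from a transcript of 953 bases (Dsg2-203), which was not left out. The place of Dsg2 in this order therefore depends on that transcript. Dsc1 followed at a median of 16.6 TPM, below Dsg2 (all transcripts counted) in 11 of 14. Up to 55.0% of the Dsc1 level came from a transcript of 663 bases (Dsc1-204), which was not left out either. The place of Dsc1 may therefore depend on it. Dsc2, with 1.68 TPM, was below Dsc1 in 13 of 14, and Dsg4, with 0.507 TPM, was below Dsc2 in 12 of 14. The cells thus held mainly the RNA of the basal-layer pair Dsc3 and Dsg3 and of E-cadherin, and little of Dsc2 or of the hair-shaft desmoglein Dsg4.

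**Figure D1:**
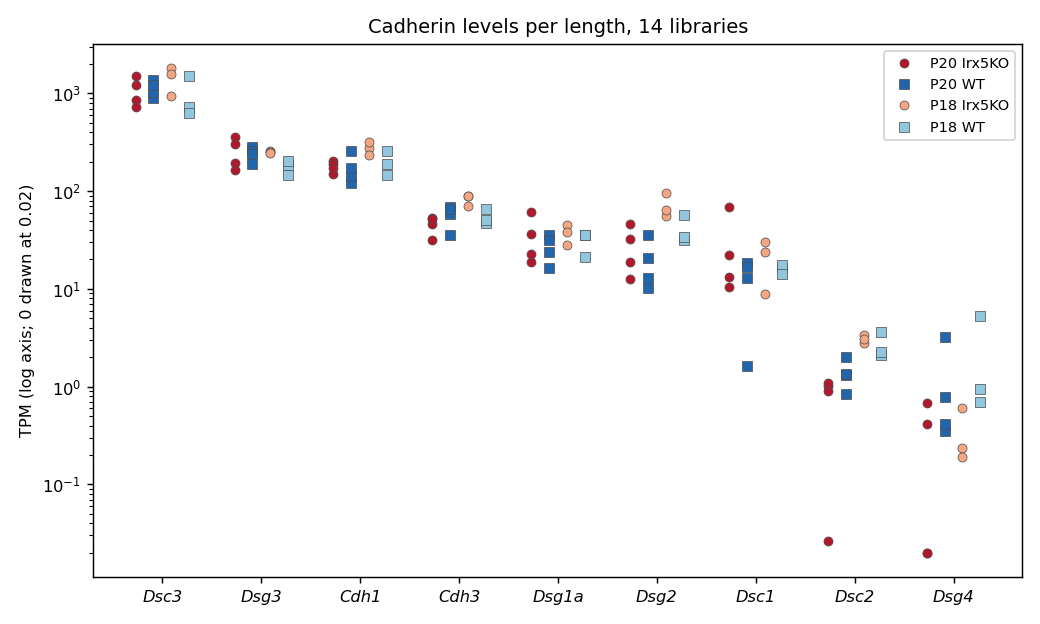
Levels of the 9 cadherin transcripts per length (TPM, log axis) in each of the 14 libraries, with genes ordered by their median. Each point is a library, coloured by age and genotype label, and values of 0 are drawn at 0.02. Dsc3, Dsg3 and Cdh1 lie above 100 TPM in every library, and Dsc2 and Dsg4 lie below 6 TPM in every library.

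Genotype was compared at each age with a model over all genes (edgeR), with the date as a covariate, and a gene was called at an adjusted p under 0.05. At P18 none of the 9 members was called between Irx5KO and WT, and 0% of all genes tested were. At an unadjusted p under 0.05 there was 1 member (Cdh3) and 977 of the 24592 genes tested, below the share of 0.05 expected with no differences. DESeq2 called 22 genes and no member. At P20, with both dates pooled, none was called either, and 0% of all genes were. No member and 1082 of the 24592 genes had an unadjusted p under 0.05, again below that share. DESeq2 called 91 genes and no member at P20. The pooled P20 comparison joins libraries labelled Irx5KO in which Irx5 was below WT with others in which it was above WT, and Dsg2 had opposite signs on the 2 dates. Within the P20 dates the counts differed. On the earlier date 2 of 9 members were called, Dsg2 higher and Dsg4 lower in the libraries labelled Irx5KO, where 4.83% of all genes were called (2.2% higher and 2.63% lower). On the later date none of the 9 was called, where 0.655% of all genes were (0.138% higher and 0.516% lower). The test of the difference between the dates called the same 2 members, where it called 5.18% of all genes (2.68% positive and 2.5% negative). Over the 9 members the median log2 difference on the earlier date was -0.30, against 0 over all genes tested and -0.0047 over well-expressed genes (mean of at least 8 CPM). On the later date it was -0.02, against -0.34 over all genes tested and -0.049 over well-expressed genes.

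On the earlier P20 date, counting libraries that do not overlap, Dsg2 and Cdh1 were higher in Irx5KO, where 15.7% of all genes were. Dsg3, Dsg4, Dsc2, Dsc3 and Cdh3 were lower, where 24.8% of all genes were. Among later-date libraries Dsg2 alone was lower without overlap, where 17.3% of all genes were, and no member was higher, where 12.7% of all genes were. With the dates pooled no member was free of overlap in either direction, where 0.374% of all genes were higher and 0.699% lower. At P18, Dsg3 and Cdh3 were higher in Irx5KO without overlap, where 3.88% of all genes were, and Dsg4 was lower, where 19.5% of all genes were.

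**Figure D2:**
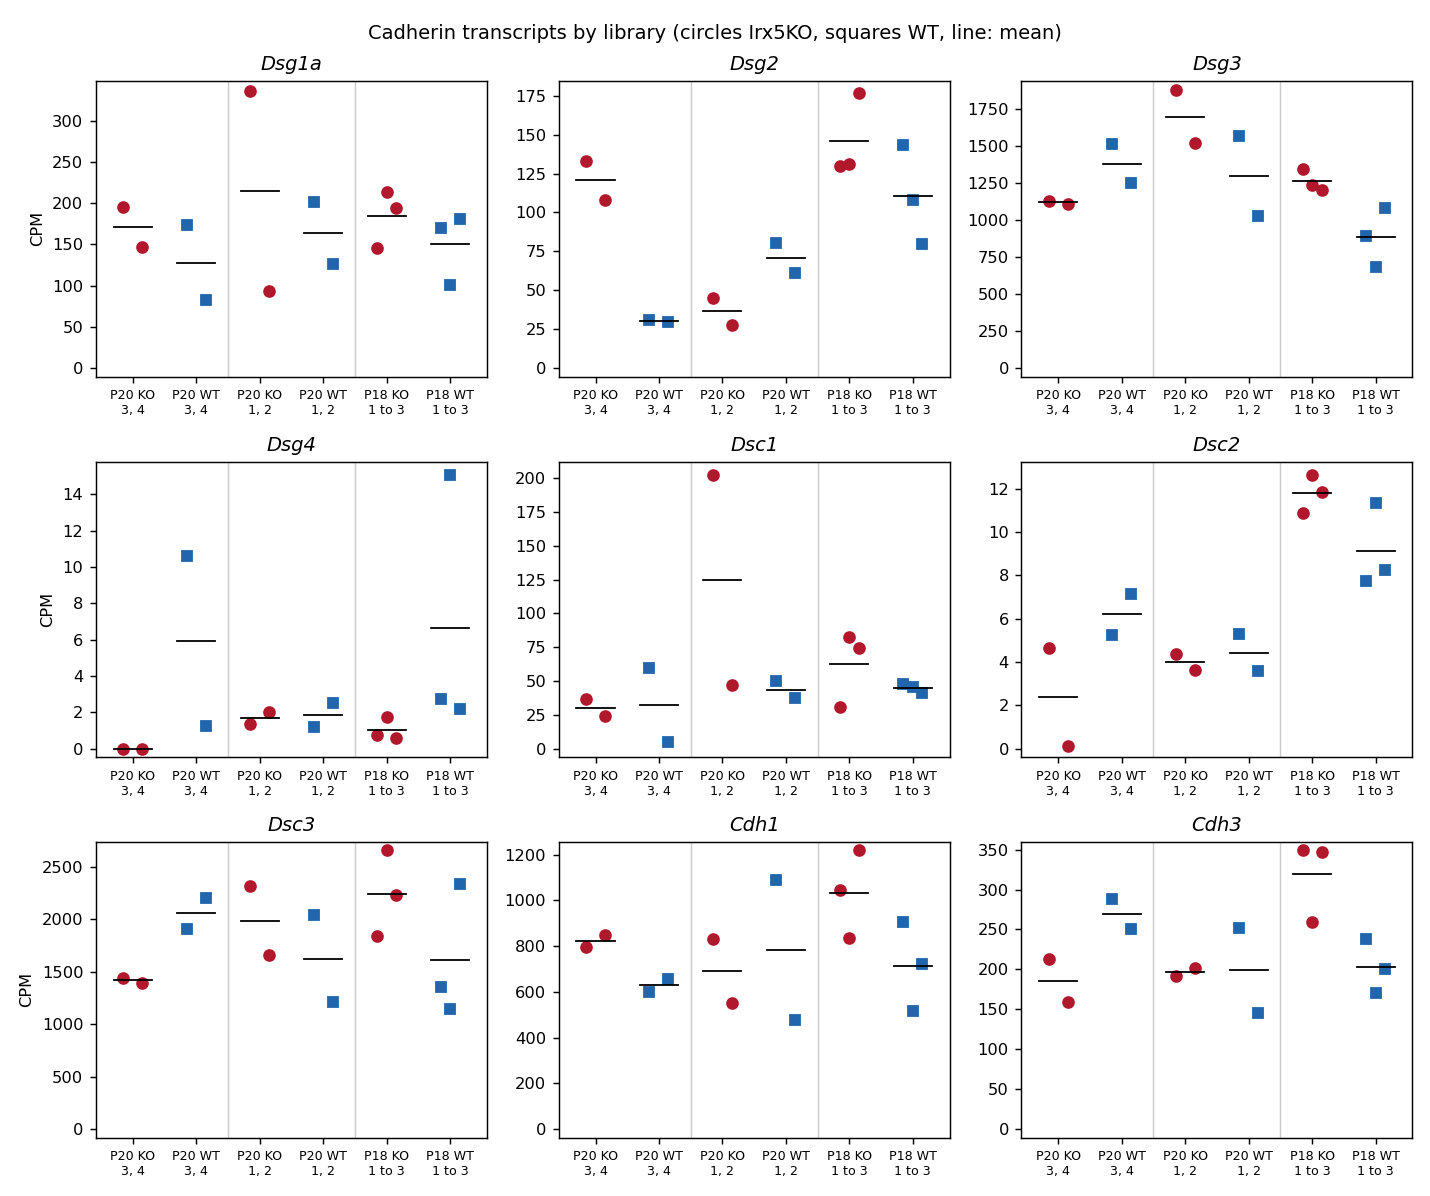
Level of each cadherin in every library, as CPM on a linear axis that includes 0. Circles are libraries labelled Irx5KO, squares are WT, and lines are the means of the libraries shown together; the P20 libraries are split into numbers 3 and 4 (earlier date) and 1 and 2 (later date). Dsg2 lies at 133 and 108 CPM in the libraries labelled P20 Irx5KO 3 and 4 and between 80.0 and 177 CPM at P18, against 27.7 to 80.7 CPM in the other 6 P20 libraries, while Cdh1 stays between 477 and 1218 CPM throughout.

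Dsg2, the desmoglein with the widest tissue range, was the member that moved most clearly. On the earlier P20 date it had 133 and 108 CPM in those labelled Irx5KO 3 and 4, against 31.2 and 29.9 CPM in WT 3 and 4. Both Irx5KO libraries were above both WT libraries, and the log2 difference was 1.98 ± 0.30 (SE; edgeR adjusted p = 0.00107). The direction follows the labels, which Irx5 itself goes against on this date: both P20 dates had more Dsg2 where Irx5 was higher. On the later date it had 45.3 and 27.7 CPM in Irx5KO 1 and 2, against 80.7 and 61.1 CPM in WT 1 and 2. Here both Irx5KO libraries were below both WT libraries, but the log2 difference of -0.96 ± 0.29 did not pass (edgeR adjusted p = 0.265). The difference itself, earlier minus later date, was 2.94 ± 0.41 on the log2 scale (edgeR adjusted p = 4.35e-04). With both dates pooled the 2 genotypes overlapped, and the log2 difference was 0.51 ± 0.56. At P18 every Irx5KO library had less Irx5 than every WT library, but Dsg2 was not lower there. Its genotypes overlapped at P18, with a log2 difference of 0.50 ± 0.64 that did not pass (edgeR adjusted p = 0.937).

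The P20 libraries with more Dsg2 were also those with more RNA of dividing cells. Mki67, a marker of cycling cells, had 1286 and 1457 CPM in those labelled Irx5KO 3 and 4, against 10.8 and 3.85 CPM in WT 3 and 4. On the later date it had 19.0 and 14.9 CPM in Irx5KO 1 and 2, against 441 and 234 CPM in WT 1 and 2. Within P20, Dsg2 therefore stood at 61.1 CPM or more in each of the 4 libraries with over 200 CPM of Mki67, and at 45.3 CPM or less in each of the other 4. At P18 Dsg2 had 129.5, 131 and 177 CPM in Irx5KO and 143, 108 and 80.0 CPM in WT, while Mki67 stayed between 14.5 and 37.5 CPM in these 6 libraries. All 6 P18 libraries thus had more Dsg2 than P20 WT 2, with less Mki67 than any of the 4 P20 libraries rich in it, and the part of dividing cells in the P20 difference was not tested. In such bulk samples, a larger share of cells with a transcript and more of it per cell cannot be told apart.

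On the earlier date Dsg2-201 and Dsg2-203, which hold most of the Dsg2 TPM, differed alike. The longest, Dsg2-201 (5766 bases), had 20.4 and 13.3 TPM in the libraries labelled P20 Irx5KO 3 and 4, against 4.64 and 4.54 TPM in WT 3 and 4. The short Dsg2-203 (953 bases) had 26.0 and 19.0 TPM in the libraries labelled Irx5KO 3 and 4, against 5.19 and 8.17 TPM in WT 3 and 4. Each was higher in both libraries labelled Irx5KO than in both WT libraries. The scarcer Dsg2-202 (3590 bases) overlapped, with 0 and 0.464 TPM in those labelled Irx5KO 3 and 4, against 0.289 and 0.230 TPM in WT 3 and 4. Dsg2 made up 16.7% and 14.8% of the desmoglein TPM of the 4 members in the libraries labelled Irx5KO 3 and 4, against 3.34% and 4.84% in WT 3 and 4, and its share over all 14 libraries reached at most 25.0%. A predicted antisense gene that overlaps Dsg2 held no counts, but a gene that was never quantified would also be given 0. Whether it was measured is therefore not known.

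Dsg3, the target of autoantibodies in pemphigus vulgaris, was the main desmoglein throughout. It held 64.8% to 90.5% of the desmoglein TPM of the 4 members, a sum that leaves out Dsg1b and Dsg1c. On the earlier P20 date it had 1129.6 and 1108 CPM in those labelled Irx5KO 3 and 4, against 1509.5 and 1247 CPM in WT 3 and 4 (log2 difference -0.30 ± 0.27). On the later date it had 1877 and 1518 CPM in Irx5KO 1 and 2, against 1568 and 1028 CPM in WT 1 and 2 (0.39 ± 0.27). Neither passed, and the difference between dates, -0.69 ± 0.39, did not pass either. At P18 it had 1347, 1237 and 1204 CPM in Irx5KO, against 889, 682 and 1078 CPM in WT. Every P18 Irx5KO library was above every P18 WT library, but the log2 difference of 0.48 ± 0.28 did not pass (edgeR adjusted p = 0.92). Within the P18 dates it was 0.18 ± 0.34 on the later date and 0.78 ± 0.33 on the earlier one, where both WT libraries are among those rich in receptor genes. Each P18 date has a single library of 1 genotype, so these SEs take the spread from the other groups.

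Dsg1a, a mouse copy of the desmoglein of the upper epidermis, showed no difference beyond the spread of the libraries. On the earlier P20 date it had 196 and 147 CPM in those labelled Irx5KO 3 and 4, against 173 and 82.4 CPM in WT 3 and 4. In the later libraries it had 335 and 93.3 CPM in Irx5KO 1 and 2, against 201 and 126 CPM in WT 1 and 2. The log2 differences were 0.42 ± 0.58 and 0.39 ± 0.58, and that at P18 was 0.14 ± 0.43. Its near copy Dsg1b had 101 CPM in each of Irx5KO 3 and 4, against 52.5 and 50.8 CPM in WT 3 and 4, which did not pass (log2 difference 0.97 ± 0.44, edgeR adjusted p = 0.289). Dsg1c was at most 10.6 CPM in any library.

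Dsg4, whose loss in humans and in lanceolate hair mice makes hair fragile, was scarce, and its call rests on few reads. On the earlier P20 date it had 0 counts in both Irx5KO 3 and Irx5KO 4, against 310 and 20 counts in WT 3 and WT 4, or 10.6 and 1.24 CPM. A count of 0 allowed up to 0.212 and 0.170 CPM in these Irx5KO libraries (3 counts each, counting error only). With the floor of 3 counts taken over both Irx5KO libraries, Dsg4 was at least 77.1-fold lower in these libraries, labelled Irx5KO against their Irx5 level, than in the pooled WT libraries, and at least 13.2-fold lower than in WT 4 alone. The edgeR adjusted p was 0.0197, and it was lost without Irx5KO 3 (adjusted p = 0.0658), without Irx5KO 4 (0.0962) or without WT 3 (0.168). In libraries of the later date Dsg4 had 1.36 and 2.03 CPM in Irx5KO 1 and 2, against 1.20 and 2.52 CPM in WT 1 and 2, with the genotypes overlapping (log2 difference -0.13 ± 1.28). The difference between the dates passed (edgeR adjusted p = 0.0419), but not without Irx5KO 1 (0.0786), Irx5KO 2 (0.115), Irx5KO 3 (0.0821), Irx5KO 4 (0.107), WT 1 (0.0875), WT 2 (0.0610) or WT 3 (0.255) of P20, or without Irx5KO 2 of P18 (0.0545), or with the P20 libraries alone (0.0642).

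Other scarce genes were also at 0 in these libraries. Of 18 other cadherin genes on a fixed list, 12 were at 0 counts in each of the libraries labelled P20 Irx5KO 3 and 4, against 5 in WT 3 and 6 in WT 4. The share of all genes at 0 was not taken, so these counts cannot be judged against it. Depth also differed, with 13618367 and 18123209 total counts in Irx5KO 3 and 4, against 32515327 and 16922104 in WT 3 and 4. Hair-shaft keratins, whose cells are the known site of Dsg4, summed over 8 genes to 0.141 and 2.21 CPM in those labelled Irx5KO 3 and 4, against 1.78 and 2.24 CPM in WT 3 and 4. WT 3 was the P20 library with the most Dsg4. The part of hair-shaft cells in the Dsg4 values was not tested. At P18, Dsg4 had 0.733, 1.74 and 0.575 CPM in Irx5KO, against 2.73, 15.1 and 2.17 CPM in WT. Every Irx5KO library was below every WT library, and the log2 difference of -2.24 ± 1.92 did not pass. The highest value, 15.1 CPM, was in P18 WT 2, where the receptor genes were also highest and the hair-shaft keratins summed to 34.6 CPM. Without the 3 libraries richest in receptor genes, which leaves P18 WT 3 as the lone WT library of that age, it was -0.90 ± 2.08.

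Dsc3, the desmocollin of basal cells, had differences of the same signs as Dsg3 on the P20 dates. On the earlier date it had 1439 and 1396 CPM in those labelled Irx5KO 3 and 4, against 1902 and 2205 CPM in WT 3 and 4. Both Irx5KO libraries were lower, yet the log2 difference of -0.53 ± 0.30 did not pass. In the later-date libraries it had 2312 and 1658 CPM in Irx5KO 1 and 2, against 2040.3 and 1209 CPM in WT 1 and 2 (0.29 ± 0.29), and the difference between dates was -0.82 ± 0.42. At P18 the genotypes overlapped, with 1840.4, 2658 and 2225 CPM in Irx5KO and 1351, 1144 and 2336 CPM in WT (0.31 ± 0.30).

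Dsc2, the desmocollin of the widest tissue range, was at most 12.6 CPM in every library. It had 4.66 and 0.113 CPM in the libraries labelled P20 Irx5KO 3 and 4, against 5.27 and 7.15 CPM in P20 WT 3 and 4, the value of Irx5KO 4 resting on 2 counts. Without Irx5KO 3 the log2 difference, otherwise -1.39 ± 0.99 and not called, became -5.73 (edgeR adjusted p = 0.00566), which then rests on Irx5KO 4 alone. The difference between dates, -1.24 ± 1.37, likewise became -5.59 (edgeR adjusted p = 0.00893). Among later-date libraries Dsc2 had 4.37 and 3.65 CPM in Irx5KO 1 and 2, against 5.28 and 3.57 CPM in WT 1 and 2 (-0.14 ± 0.96). At P18 it had 10.9, 12.6 and 11.8 CPM in Irx5KO, against 7.73, 11.4 and 8.27 CPM in WT, with the groups overlapping (0.38 ± 0.87). It was higher in Irx5KO in 3 of 3 same-numbered pairs, a count whose share over all genes was not taken. The P18 libraries numbered 2 lie on different dates. With the same-numbered pairs as a block the log2 difference was 0.39 ± 0.88 (edgeR adjusted p = 0.864).

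Dsc1, the desmocollin of the upper epidermis, was high in a single library. P20 Irx5KO 1 had 203 CPM and Irx5KO 2 had 47.0 CPM, against 49.9 and 37.2 CPM in P20 WT 1 and 2. The log2 difference of 1.52 ± 1.06 on this later date did not pass with the expression filter. Without any expression filter the same value passed (edgeR adjusted p = 0.0011), as did the difference between dates (-1.63, adjusted p = 0.0149). On the earlier date Dsc1 had 36.7 and 24.0 CPM in those labelled Irx5KO 3 and 4, against 59.8 and 5.28 CPM in WT 3 and 4 (-0.11 ± 1.05). At P18 the log2 difference was 0.17 ± 0.98, with 30.9 to 82.7 CPM in Irx5KO and 41.4 to 47.9 CPM in WT.

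Markers of the upper epidermis were high in the same library. The 5 suprabasal markers Krt1, Krt10, Krtdap, Sbsn and Dmkn summed to 6771 CPM in P20 Irx5KO 1, against 897 to 2547 CPM in the other 13 libraries. The 6 granular and cornified markers, among them Lor and Flg, summed to 3848 CPM there, against 82.4 to 1418 CPM in the other 13. None of these 11 genes was at 0 counts in any library. P20 Irx5KO 1 also had the highest Dsg1a (335 CPM) and the highest Dsg3 (1877 CPM) of all libraries, and P20 WT 4, the library with the lowest Dsc1, had the lowest sum of granular markers. The part of upper epidermal cells in these values was not tested.

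**Figure D3:**
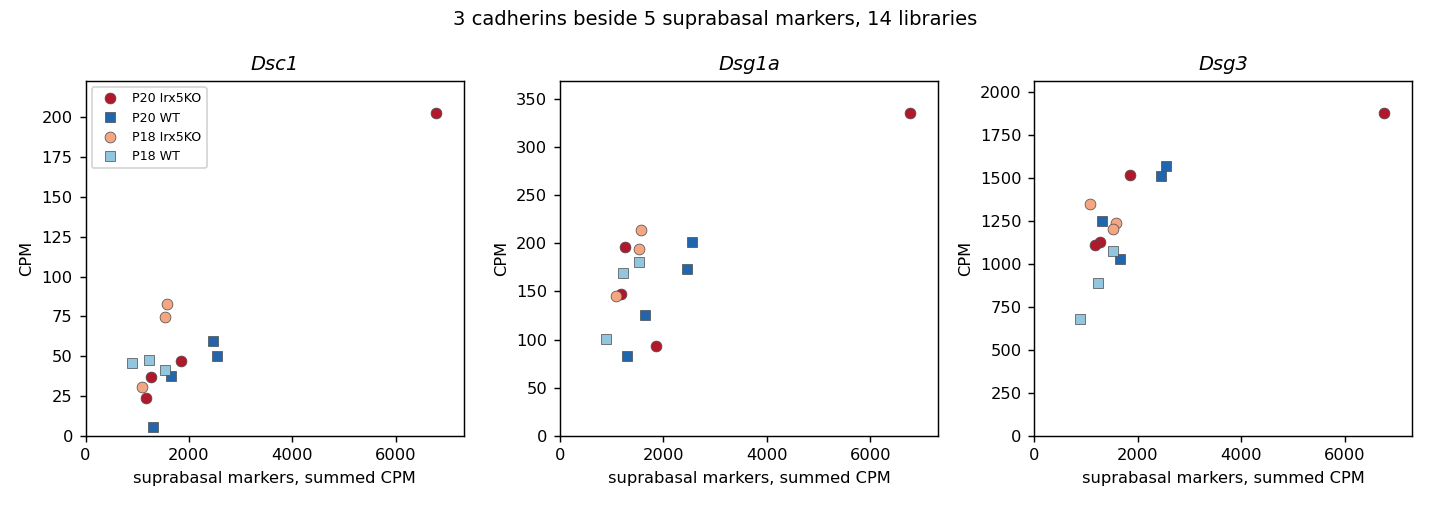
Level of Dsc1, Dsg1a and Dsg3 (CPM) against the summed CPM of 5 suprabasal markers, 1 point per library, coloured by age and genotype label. P20 Irx5KO 1 stands apart at 6771 CPM of markers, with 203 CPM of Dsc1; the other 13 libraries lie at or below 2547 CPM of markers and 82.7 CPM of Dsc1.

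Cdh1, the main classical cadherin of epithelia, stayed within 477 to 1218 CPM. On the earlier P20 date it had 796 and 849 CPM in those labelled Irx5KO 3 and 4, against 601 and 657 CPM in WT 3 and 4. Both Irx5KO libraries were higher, but the log2 difference of 0.39 ± 0.38 did not pass. In the later libraries it had 829.5 and 553 CPM in Irx5KO 1 and 2, against 1088 and 477 CPM in WT 1 and 2 (-0.18 ± 0.38), and the difference between dates was 0.57 ± 0.53. At P18 it had 1044, 835 and 1218 CPM in Irx5KO, against 907, 515 and 723 CPM in WT (0.53 ± 0.35). It was higher in Irx5KO in 3 of 3 same-numbered pairs, a count whose share over all genes was not taken. The P18 libraries numbered 2 lie on different dates. With the same-numbered pairs as a block the log2 difference was 0.55 ± 0.27 (edgeR adjusted p = 0.601). The transcript Cdh1-201 (4430 bases) held at least 84.2% of its TPM in every library.

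Cdh3, the P-cadherin of basal and hair germ cells, had its clearest difference at P18. It had 349, 259.7 and 348 CPM in P18 Irx5KO, against 238, 171 and 200.2 CPM in P18 WT. All 3 Irx5KO libraries were above all 3 WT libraries, as for Dsg3. The log2 difference was 0.69 ± 0.27, which did not pass over all genes (edgeR adjusted p = 0.92). It was 0.60 ± 0.37 on the later P18 date and 0.77 ± 0.35 on the earlier one, again with a single library on 1 side. At P20 the sign was the opposite on the earlier date, with 213 and 159 CPM in those labelled Irx5KO 3 and 4, against 288 and 251 CPM in WT 3 and 4 (-0.54 ± 0.30). In libraries of the later date it had 192 and 201 CPM in Irx5KO 1 and 2, against 252 and 146 CPM in WT 1 and 2 (-0.02 ± 0.30). Pooled over dates the P20 log2 difference was -0.28 ± 0.23. The genotype effect at P20 minus that at P18 was -0.97 ± 0.35 on the log2 scale (edgeR adjusted p = 1). Its P20 side includes the earlier date, where Irx5 goes against the labels, and its value depends on them. In that test no member and 0% of all genes were called, and DESeq2 called 11 genes and no member. At an unadjusted p under 0.05 there were 335 of the 24592 genes tested and 1 member, below the share of 0.05 expected with no differences. The same difference was -1.13 ± 1.12 for Dsc2 and -0.44 ± 0.36 for Dsg3.

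The balance of the classical cadherins varied with these values. The ratio of Cdh3 to Cdh1 TPM ran from 0.186 to 0.481. It was 0.27 and 0.19 in the libraries labelled P20 Irx5KO 3 and 4, against 0.48 and 0.38 in P20 WT 3 and 4. In the later-date libraries it was 0.22 and 0.35 in Irx5KO 1 and 2, against 0.23 and 0.30 in WT 1 and 2. At P18 it was 0.32, 0.30 and 0.28 in Irx5KO, against 0.25, 0.32 and 0.27 in WT. The ratio was therefore lower without overlap in libraries labelled Irx5KO on the earlier P20 date alone, where Irx5 goes against the labels. The share of gene pairs whose ratios do not overlap was not taken, and the ratio was not tested.

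The proteins that cadherins bind inside the cell were taken from fixed lists. Of 6 desmosomal plaque genes none passed on either P20 date, and 1 passed in the difference between dates, where 5.18% of all genes did. That gene was Dsp, which encodes desmoplakin, the link to keratin. Dsp had 6623 and 7111 CPM in the libraries labelled P20 Irx5KO 3 and 4, against 14837 and 12091 CPM in WT 3 and 4 (log2 difference -0.97 ± 0.28, edgeR adjusted p = 0.0654). In the later libraries it had 16571 and 15433 CPM in Irx5KO 1 and 2, against 10919 and 8359 CPM in WT 1 and 2 (0.73 ± 0.28, edgeR adjusted p = 0.548). Dsp was thus lower without overlap in the libraries labelled Irx5KO on the earlier date, where Irx5 goes against the labels, and higher without overlap on the later date, the reverse of Dsg2, and the difference between dates was -1.70 ± 0.40 (edgeR adjusted p = 0.0196). That call was lost without P20 Irx5KO 1 (adjusted p = 0.0853), Irx5KO 2 (0.0741), Irx5KO 3 (0.0879), Irx5KO 4 (0.0823) or WT 3 (0.112), with log2 differences of -1.55 to -1.75. It was also lost with TMM factors over all genes (-1.86, adjusted p = 0.157) and with the replicate block (-1.71, 0.0522).

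Pkp3, a plakophilin of all epidermal layers, had the same pattern, with 209 and 233 CPM in the libraries labelled P20 Irx5KO 3 and 4, against 339 and 318 CPM in WT 3 and 4. In libraries of the later date it had 525 and 503 CPM in Irx5KO 1 and 2, against 403 and 246 CPM in WT 1 and 2. Its difference between dates, -1.23 ± 0.37, did not pass (edgeR adjusted p = 0.0701). Jup (plakoglobin) and Perp, a tetraspan protein of desmosomes, had differences between dates of -0.96 ± 0.47 and -0.98 ± 0.44, and Pkp1 had 0.78 ± 0.47, none of which passed. Pkp2 was at most 8.47 CPM.

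Of 5 genes of catenins and their partners, 1 passed in the difference between dates (5.18% of all genes did) and none on either date. It was Ctnna1, alpha-catenin, which ties cadherins to actin. Ctnna1 had 526 and 549 CPM in the libraries labelled P20 Irx5KO 3 and 4, against 825 and 767 CPM in WT 3 and 4 (log2 difference -0.57 ± 0.27). In the later-date libraries it had 1129 and 1009 CPM in Irx5KO 1 and 2, against 756 and 455 CPM in WT 1 and 2 (0.82 ± 0.27). The genotypes did not overlap on either date, with opposite signs, and the difference between dates was -1.39 ± 0.38 (edgeR adjusted p = 0.0476). That call is a narrow one: it was lost without P18 Irx5KO 3 (adjusted p = 0.0643), P20 Irx5KO 1 (0.164), Irx5KO 2 (0.119), Irx5KO 3 (0.122) or Irx5KO 4 (0.121), and without P20 WT 2 (0.0976), WT 3 (0.174) or WT 4 (0.103). It was also lost with TMM factors over all genes (0.206), RLE size factors (0.0822), length offsets (0.061) or the replicate block (0.0620), and without the 3 receptor-rich libraries (0.0546). Over all these losses the log2 difference was -1.07 to -1.52. Ctnnb1, beta-catenin, had a difference between dates of 0.55 ± 0.33, Ctnnd1 (p120) of -0.49 ± 0.45, Ctnnal1 of -0.63 ± 0.48 and Vcl, vinculin, of 0.46 ± 0.47, and none of them passed.

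**Figure D4:**
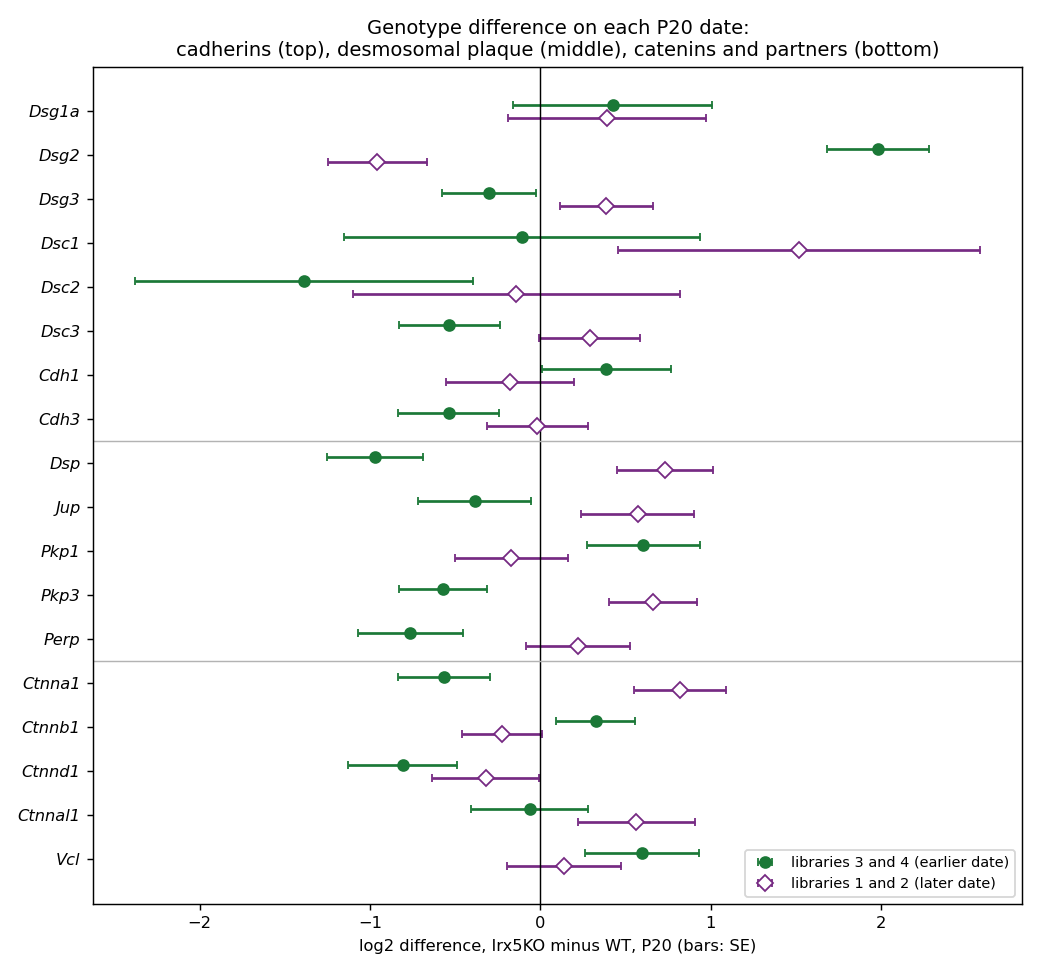
Log2 difference of Irx5KO minus WT on each P20 date for 8 of the cadherins, 5 desmosomal plaque genes and 5 catenins and partners, with bars of 1 SE. Filled circles are the earlier date (libraries 3 and 4) and open diamonds the later date (libraries 1 and 2); Dsg4 and Pkp2, which are near 0 in some libraries, are left out. Dsg2 lies at 1.98 on the earlier and -0.96 on the later date, while Dsp, Pkp3 and Ctnna1 lie on the opposite sides.

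Of the 18 other cadherin genes on the list, 1 passed on the earlier P20 date and in the difference between dates, a share near that of all genes (4.83% and 5.18%). This was Cdh13, T-cadherin, which is held to the membrane by a lipid anchor and binds no catenin. With the same limit on the labels, Cdh13 had 39.6 and 29.1 CPM in the libraries labelled P20 Irx5KO 3 and 4, against 174 and 150.1 CPM in WT 3 and 4 (log2 difference -2.24 ± 0.25, edgeR adjusted p = 1.055e-04). Among later-date libraries it had 123 and 138 CPM in Irx5KO 1 and 2, against 85.3 and 72.3 CPM in WT 1 and 2 (0.73 ± 0.24, edgeR adjusted p = 0.378). The genotypes did not overlap on either date, with opposite signs as for Dsp, and the difference between dates was -2.97 ± 0.35 (edgeR adjusted p = 9.53e-05). Of 5 nectin and afadin genes, Afdn, the afadin that ties nectins to actin, passed in the difference between dates (-1.66 ± 0.44, edgeR adjusted p = 0.0408). It no longer passed without P20 Irx5KO 1 (0.129), Irx5KO 2 (0.120), Irx5KO 3 (0.143), Irx5KO 4 (0.0826), WT 2 (0.0919) or WT 3 (0.233), or with TMM factors over all genes (0.172), RLE size factors (0.0725) or the replicate block (0.0642). None of 12 tight junction genes, none of 8 tested genes of cadherin shedding and corneodesmosome turnover and none of 9 listed repressors of cadherin genes passed on either P20 date or in their difference. Among 15 keratinocyte transcription factors, Klf4 and Ovol2 passed on the earlier date, and Klf4, Ovol1 and Ovol2 in the difference between dates, where 4.83% and 5.18% of all genes passed. Klf4, a factor of epidermal barrier formation, had a log2 difference of -1.53 ± 0.34 on the earlier date (edgeR adjusted p = 0.016) and had a difference between dates of -2.75 ± 0.48 (edgeR adjusted p = 0.00242). The call on the earlier date was lost without Irx5KO 3 (0.142) or WT 3 (0.205), or with TMM factors over all genes (0.0723). Ovol1 and Ovol2, zinc-finger factors of epithelial cells, had differences between dates of -2.63 ± 0.62 and -2.77 ± 0.69 (edgeR adjusted p = 0.0219 and 0.0275). The Ovol1 call was lost without P20 Irx5KO 1 (0.100), Irx5KO 3 (0.0807), Irx5KO 4 (0.0947), WT 2 (0.0595), WT 3 (0.0876) or WT 4 (0.0515), or with TMM factors over all genes (0.0604) or length offsets (0.115). The Ovol2 call was lost without P20 Irx5KO 1 (0.0577), Irx5KO 2 (0.151), WT 2 (0.0834), WT 3 (0.132) or WT 4 (0.0746), and its call on the earlier date was lost without any of the 4 libraries of that date (0.0548 to 0.130). Length offsets lost both Ovol2 calls (0.0605 on the earlier date, 0.0795 in the difference), and the replicate block (0.0527) and leaving out the receptor-rich libraries (0.0633) lost that of the difference.

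Age was compared within each labelled genotype, where age and date cannot be told apart. Both comparisons include P20 libraries of the earlier date, where Irx5 goes against the labels, and depend on those labels. Among Irx5KO libraries none of the 9 members was called between P20 and P18, where 1.57% of all genes were (0.61% higher and 0.96% lower at P20), and DESeq2 called none of the members. Dsc2 had 4.37, 3.65, 4.66 and 0.113 CPM at P20, against 10.9, 12.6 and 11.8 CPM at P18, and the ages did not overlap. Its log2 difference was -1.88 ± 0.74 (edgeR adjusted p = 0.275). Cdh3 had 192, 201, 213 and 159 CPM at P20, against 349, 259.7 and 348 CPM at P18, likewise without overlap (-0.74 ± 0.24, edgeR adjusted p = 0.173). Both were lower at P20 without overlap, as were 8.58% of all genes, and no member was higher without overlap, as were 5.25%. With the labels of the earlier P20 date exchanged, the ages would overlap for Cdh3, and Dsg2 would be lower at P20 without overlap. The log2 differences of Dsg2 (-0.89 ± 0.48), Dsc3 (-0.40 ± 0.31) and Cdh1 (-0.45 ± 0.30) did not pass. Of the listed junction genes, Cldn1, a claudin of epidermal tight junctions, and Adam17, a metalloprotease that sheds membrane proteins, were lower at P20 (-1.52 ± 0.35 and -0.92 ± 0.22, edgeR adjusted p = 0.0377 and 0.0491). The Cldn1 call was lost without P18 Irx5KO 2 (0.135) or 3 (0.243), or without P20 Irx5KO 1 (0.0621), 2 (0.0917), 3 (0.0858) or 4 (0.0772), or with TMM factors over all genes (0.124) or length offsets (0.0537). The Adam17 call was lost without any single library other than P20 Irx5KO 3 (0.0509 to 0.359), with TMM factors over all genes (0.198), RLE size factors (0.0649), no expression filter (0.0806) or length offsets (0.0691), and without the receptor-rich libraries (0.0920).

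Among WT libraries none of the 9 members was called between P20 and P18 either, where 0.195% of all genes were (0.0691% higher and 0.126% lower at P20), and DESeq2 called none of the members. Dsc2 had 5.28, 3.57, 5.27 and 7.15 CPM at P20, against 7.73, 11.4 and 8.27 CPM at P18, without overlap, as were 7.54% of all genes, against 4.82% higher without overlap (log2 difference -0.78 ± 0.73). Dsg2 had 80.7, 61.1, 31.2 and 29.9 CPM at P20, against 143, 108 and 80.0 CPM at P18 (-1.12 ± 0.48, edgeR adjusted p = 0.456). Only P20 WT 1 reached into the range of the P18 libraries. With the labels of the earlier P20 date exchanged, more of the P20 WT libraries would reach into it. Dsg3 had 1568, 1028, 1509.5 and 1247 CPM at P20, against 889, 682 and 1078 CPM at P18 (0.60 ± 0.27, edgeR adjusted p = 0.474). Cdh3 had 0.21 ± 0.25, with the ages overlapping. Dsc2 was thus lower at P20 than at P18, with no overlap, under both genotype labels, although neither difference passed. The share of all genes lower without overlap under both labels was not taken, and age and date cannot be told apart.

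The genes whose levels ran most like those of each member were found by the correlation of log2(CPM + 1) over the 14 libraries among 9900 genes, and are given as a description. The libraries fall on shared dates and differ in depth and receptor content, so they are not independent points. For Dsg2 they were St5 (r = 0.97), Smim3 (0.95) and Frmd4a (0.95). For Dsg3 they were Hmces, which shields abasic sites in DNA (0.98), Ppp1r2, an inhibitor of protein phosphatase 1 (0.97), and the RNA-binding Pum2 (0.96). Dsc1 ran with Ptgs1, cyclooxygenase 1 (0.95), Psapl1 (0.92) and Ly6g6c (0.92), and Dsg1a with the microtubule linker Hook1 (0.87), the cornified envelope gene Ivl (0.85) and malic enzyme Me1 (0.85). Dsc3 ran with Trip11 (0.92), Btg1 (0.91) and the kinase Fer (0.91), and Dsc2 with Spock1 (0.95), Parp14 (0.94) and Zfp280d (0.94). Cdh1 ran with the sphingomyelin synthase Sgms2 (0.95), Sema4b (0.93) and alpha-actinin Actn1 (0.93). Cdh3 ran with the metalloprotease Adam9 (0.88), Fbxo38 (0.87) and Map3k1 (0.87). For Dsg4 the values were lower, with Thrb (0.86), Lrrc61 (0.84) and Sumf2 (0.84).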

How the data were processed

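RNA of 14 libraries was sequenced as single-end reads. The deposited tables give, per transcript, an estimated count and a TPM value; per the file headers and the labels' protocols these come from kallisto 0.46.2, and the submitters' processing notes name mm10, kallisto and DESeq2. Neither transcript annotation nor strand setting is given in the sources used here. Gene values were made as follows: the deposited estimated counts were summed per gene with GENCODE vM21 and rounded to whole numbers, and the deposited TPM values were summed per gene. Transcripts that matched no gene held 1.19% to 2.59% of counts and were left out.

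Tests used edgeR 4.0.16 (R 4.3.3, limma 3.58.1), a robust quasi-likelihood fit over all 14 libraries, with filterByExpr by group and TMM factors over the 10536 genes with a mean of at least 8 CPM. P-values were adjusted by the Benjamini-Hochberg method across all 24592 genes tested. The SE is the log2 difference divided by the square root of F and is approximate. Genotype comparisons that pool dates took date, nested in age, as covariate, comparisons within a date had a mean for each date and genotype, and age comparisons had no covariate. DESeq2 1.42.0 was an alternative, as were other scalings, filters, length offsets, sets of libraries and a replicate block. The same recomputations for genes that are not among the 9 were chosen after seeing the data. Floors of 3 counts cover counting error only.

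Same-numbered P18 libraries deviated together (correlations 0.359, 0.146 and 0.287), so their numbers were taken as pairs. Unlike numbers at P18 had -0.329 to 0.0826. This pairing was read from these same data, and the libraries numbered 2 lie on different dates. The block called 0 genes at P18, as did the fit without it. The genes named are the 9 members, the Dsg1a copies, Irx5, Mki67, all plaque and catenin genes, at most 4 per other list with the smallest p, and the 3 most alike genes of each member. The members and lists were chosen with earlier results of these data known.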

Additional observations from a re-analysis of the deposited data

Results flagged for a closer look

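The level of 2 members in a single library stood apart from the other libraries of its group, among 18 groups of 4 libraries looked at, where chance marks about 1 group in 20. Dsc1 had 203 CPM in P20 Irx5KO 1, against 24.0 to 47.0 CPM in the other 3 P20 Irx5KO libraries. Dsg4 had 10.6 CPM in P20 WT 3, against 1.20 to 2.52 CPM in the other 3 P20 WT libraries. The genotype effect of 2 members differed between the P20 dates by the test of the difference itself (edgeR, earlier minus later date), where 5.18% of all genes did. Irx5 goes against the labels on the earlier date, with 186 and 175 CPM in P20 Irx5KO 3 and 4, against 34.1 and 38.5 CPM in P20 WT 3 and 4, so both values hold for the libraries as labelled. Whether the labels were exchanged was not tested; with them exchanged, Dsg2 would be lower in Irx5KO on both dates. For Dsg2 the difference was 2.94 on the log2 scale (adjusted p = 4.35e-04). For Dsg4 it was -10.47 (adjusted p = 0.0419), a fitted value that depends on the prior count because both earlier Irx5KO libraries had 0 counts.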

How the results depend on the processing

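Of 1201 recomputed values of the members, 1157 kept their direction and their side of the threshold, 12 lost a call, 4 gained one and 28 changed sign, none of which had passed. Dsg2 passed on the earlier P20 date (1.82 to 2.12) and in the difference between dates (2.63 to 3.33) under all 23 alternatives. Of 479 recomputed values of partner genes, 79 lost a call, 14 gained one and 0 changed sign; Cdh13 passed in all on the earlier date and in the difference. Without an expression filter 183 genes were called at P18, 209 at P20, 668 on the later and 2100 on the earlier date (1 member, Dsc1, on the later), 2041 in the difference between dates and 19 in that between ages. DESeq2 called 22, 91, 447, 2613, 2404 and 11 genes in that order, and 1391 and 677 by age in Irx5KO and WT. Length offsets gave 101 on the later date and 224 and 26 by age in Irx5KO and WT. TMM over all genes gave 143 and 0 by age, and moved the median of well-expressed genes by 0.21 at P18 and 0.29 by age in WT. Without the receptor-rich libraries there were 1872 on the earlier date and 2 by age in WT. With P20 libraries alone the difference between dates called 1 member. Leaving out single libraries gave 0 to 1 genes at P18, 28 to 256 on the later and 416 to 1575 on the earlier date, 667 to 1448 in the difference between dates, 0 to 1 in that between ages, and 61 to 410 and 11 to 110 by age in Irx5KO and WT; members called were 1 to 2 on the earlier date and 1 to 2 in the difference. On the later date, TMM over all genes gave 0.0055 for Dsg4 and 0.0010 for Cdh3, and without the receptor-rich libraries Dsg4 was 0.49 and Dsc3 -0.040. On the earlier date Dsc1 was 0.39 with length offsets; in the difference Dsg1a was -0.12 with TMM over all genes and -0.063 with length offsets. Leaving out single libraries gave sign changes with ranges of -0.59 to 0.93 for Dsc1 at P18; on the later date of -0.81 to 1.04 for Dsg1a, -0.57 to 0.49 for Dsg4, -0.39 to 0.17 for Dsc2, -0.040 to 0.72 for Dsc3, -0.65 to 0.53 for Cdh1 and -0.36 to 0.43 for Cdh3; on the earlier date of -0.98 to 2.52 for Dsc1 and -0.015 to 1.06 for Dsg1a; and in the difference of -0.61 to 1.23 for Dsg1a, -2.50 to 1.00 for Dsc1 and -0.15 to 1.04 for Cdh1. The cause of these changes was not tested. With the replicate block 120 genes were called on the later, 985 on the earlier date and 1160 in the difference, with members called unchanged at 0, 2 and 2; Cdh3 was 0.034 on the later and Dsc1 0.70 on the earlier date, and the Dsp, Ctnna1 and Afdn differences lost their call (adjusted p = 0.0522, 0.0620 and 0.0642). P20 libraries share only a number (correlations 0.0441, 0.447, 0.190 and 0.302), and unlike numbers there reached 0.4135 (Irx5KO 1 with WT 2). Depth limits Dsg4 and Dsc2, with 310 and 761 counts at most in a library.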
